A study of Mus musculus with 2 samples.

Results

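The Wnt and beta-catenin pathway was described in primordial germ cells (PGCs) of the mouse, from which oocytes and sperm later arise, through the genes that carry its signal. Its genes were taken from the deposited expression table by symbol: the Wnt ligands, Porcn and Wls, the Frizzled, Lrp5/6 and Ror receptors, the Dkk and Sfrp antagonists, Rnf43, Znrf3 and the Lgr receptors, Dvl, Axin, Apc and Gsk3, and the TCF/LEF factors. Of 60 such gene names, 38 had a row among the 18877 in the table, and the other 22 were not analysed here. The study profiled germ cells of C57BL/6 embryos at embryonic day 9.5 (E9.5), when PGCs are on their way to the future gonads, by RNA-seq in 2 samples of 1 group. The cells were enriched with an antibody against SSEA1, a carbohydrate antigen on the germ cell surface, and had received no treatment. The methods also name an antibody against the integrin CD61, used with it where cells were sorted by flow cytometry. The labels give neither the number of embryos behind a sample nor whether embryos were pooled. The methods describe the embryos as female, whereas the Y-linked gene Ddx3y, which female embryos lack, was read in both libraries, at 7.32 and 5.35 TPM.

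Wnt proteins are lipid-modified by Porcn, carried out of the cell by Wls, and bind Frizzled receptors together with the co-receptor Lrp5 or Lrp6. The receptors recruit Dishevelled (Dvl) and inhibit a cytoplasmic complex of Axin, Apc and Gsk3 that otherwise marks beta-catenin for destruction, and beta-catenin that escapes enters the nucleus and acts with TCF/LEF factors. R-spondins, which bind Lgr4, Lgr5 and Lgr6, spare the receptors from removal by the ubiquitin ligases Znrf3 and Rnf43. In the mouse embryo Wnt3 is needed before PGCs form, to make the epiblast able to respond to BMP, and Wnt5a acting through the receptor Ror2 is needed for normal PGC migration.

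Levels were given as TPM, a relative transcript abundance that is corrected for gene length and sums to nearly the same total in each library, so it can be set side by side between genes. The smallest step of the values gave back the reads behind them: 15912470 reads in replicate 1 and 5458687 in replicate 2, with 27848 and 7306 of them on the Wnt pathway genes. Intervals below are exact 95% Poisson intervals on those reads and cover counting error only. With 2 libraries of 1 group no test between conditions was possible, and no p-value is given.

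The germ cell label was checked against its markers. All 10 of a list of PGC markers reached 1 TPM in both libraries, against 60.0% of all genes. They ran from Dppa3, a maternal-effect and germ cell gene, at 5013 and 5075 TPM down to Pou5f1, which encodes Oct4, at 1.54 and 1.46 TPM. Pou5f1 (33 and 11 reads) thus lay below the median of all genes, which was 2.71 and 2.61 TPM. Marker genes of other cells were also read. The summed TPM of the marker lists in replicates 1 and 2 was 3983 and 3765 for primitive red blood cells (6 genes, led by the embryonic globin Hba-x). It was 19.4 and 9.53 for macrophages (4 genes, led by Fcer1g) and 2.37 and 3.95 for mesenchyme (5 genes, led by Col3a1). For endothelium it was 12.9 and 11.0 (5 genes), most of it from the single gene Pecam1, at 8.23 and 9.99 TPM. The sums were 3.91 and 3.99 for gonadal and coelomic epithelium (5 genes, led by Emx2), 6.41 and 7.05 for neural tissue (3 genes, led by Pax6), 178 and 152 for gut endoderm (4 genes, most of it Epcam, which PGCs also make) and 3.4 and 9.23 for visceral endoderm (4 genes, led by Rbp4). In these lists Lum of mesenchyme and Foxa1 of gut endoderm were at 0 in both libraries, while the other 4 mesenchyme markers were read in both and Foxa2 of gut endoderm in replicate 2, at 0.505 TPM (4 reads). Lum, Foxa1 and Foxa2 are named after their values were seen. The part of such cells in the Wnt gene levels was not tested, and in these bulk samples fewer cells expressing a gene and less RNA of it per cell cannot be told apart.

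Nearly all of the cytoplasmic genes with a row reached 1 TPM in both libraries, whereas none of the ligands with a row did. Only 6 of 19 ligand names had a row, against 7 of 8 cytoplasmic names. The comparison of these groups therefore leaves out most of the ligand family. Of the 38 genes, 19 (50%) reached 1 TPM in both libraries, against 60.0% of all genes in the table. This order depends on the threshold: at 0.5 TPM in both libraries it was 29 genes (76.3%), against 68.7% of all genes. Another 9 reached 1 TPM in 1 library only, and 10 stayed below 1 TPM in both, of which Dkk3 had no read at all. The median level was 1.39 in replicate 1 and 1.26 in replicate 2 on the log2(TPM + 1) scale (1.33 ± 0.09 SD, n = 2), against 1.89 and 1.85 for all genes. By role, 6 of 7 cytoplasmic genes, 6 of 12 receptors, 2 of 3 genes of receptor turnover, 2 of 4 TCF/LEF factors, 2 of 4 antagonists and 1 of 2 secretion genes reached 1 TPM in both libraries, but 0 of 6 ligands. At 0.5 TPM in both libraries it was 4 of 6 ligands, 7 of 7 cytoplasmic genes and 2 of 4 TCF/LEF factors. The median of the cytoplasmic genes lay above that of the ligands by 1.27 in replicate 1 and 1.49 in replicate 2 on the log2(TPM + 1) scale (1.38 ± 0.15 SD, n = 2).

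**Figure D1:**
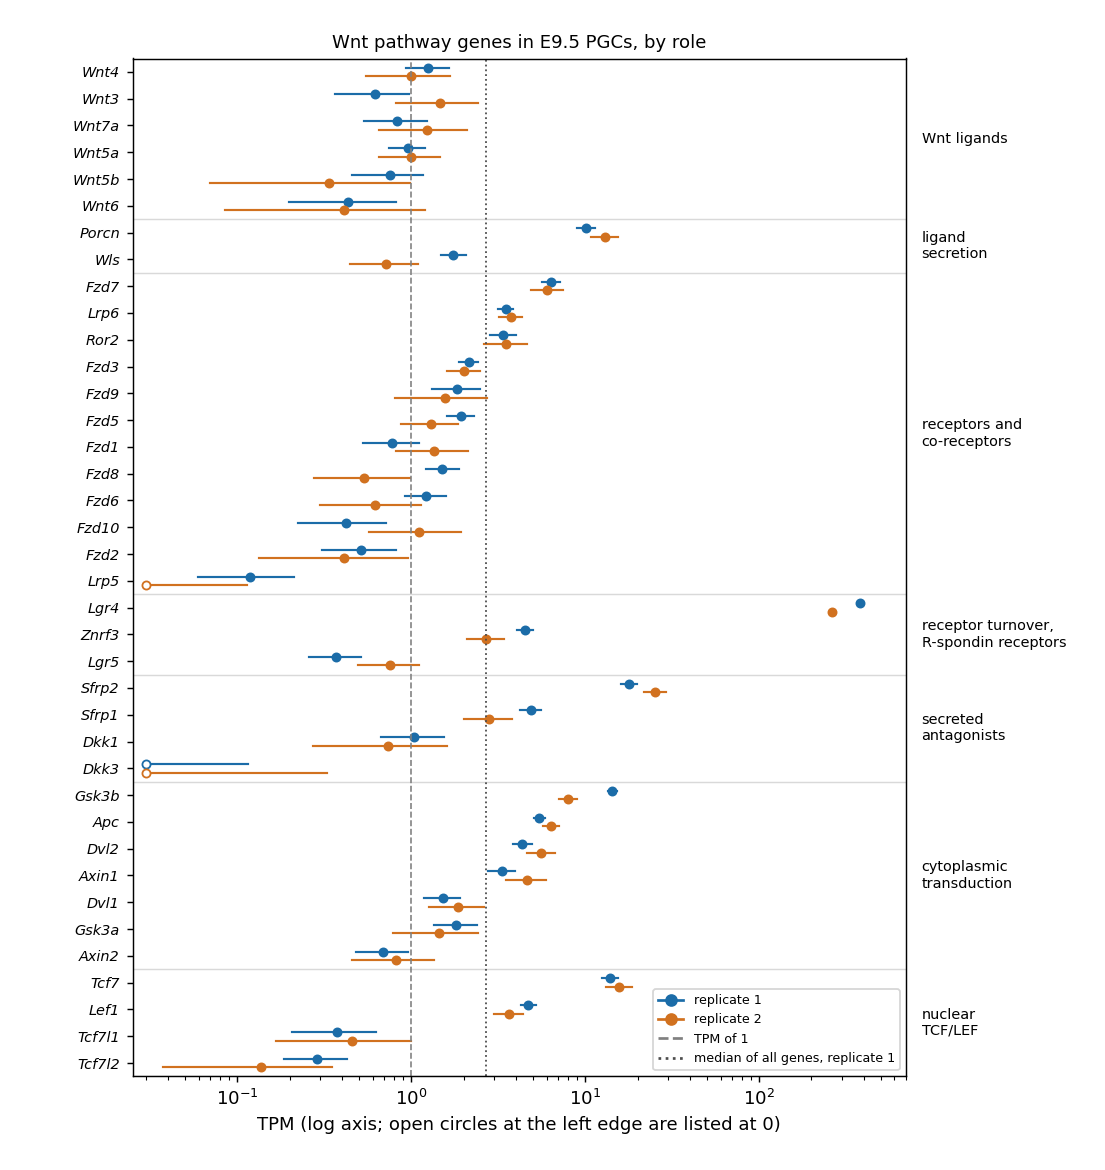
TPM (log axis) of the 38 Wnt pathway genes by role, with a point for each replicate and its exact 95% Poisson interval; the dashed line marks 1 TPM and the dotted line the median of all genes in replicate 1. Lgr4 stands at 379.9 and 262 TPM, while the 6 ligands lie between 0.338 and 1.46 TPM.

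A single gene, Lgr4, made up most of the summed level. Together the 38 genes summed to 499.9 and 385 TPM in replicates 1 and 2, of which Lgr4 took 76.0% and 68.2%. Without it the sums were nearly equal between the libraries, at 119.9 and 122 TPM. Ordered by mean TPM, Lgr4 ranked 532 of 18877, and the next Wnt pathway gene, Sfrp2, ranked 3266. Tcf7 ranked 4099, Porcn 4792 and Gsk3b 4869, and these 5 were the genes with a mean above 10 TPM.

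**Figure D2:**
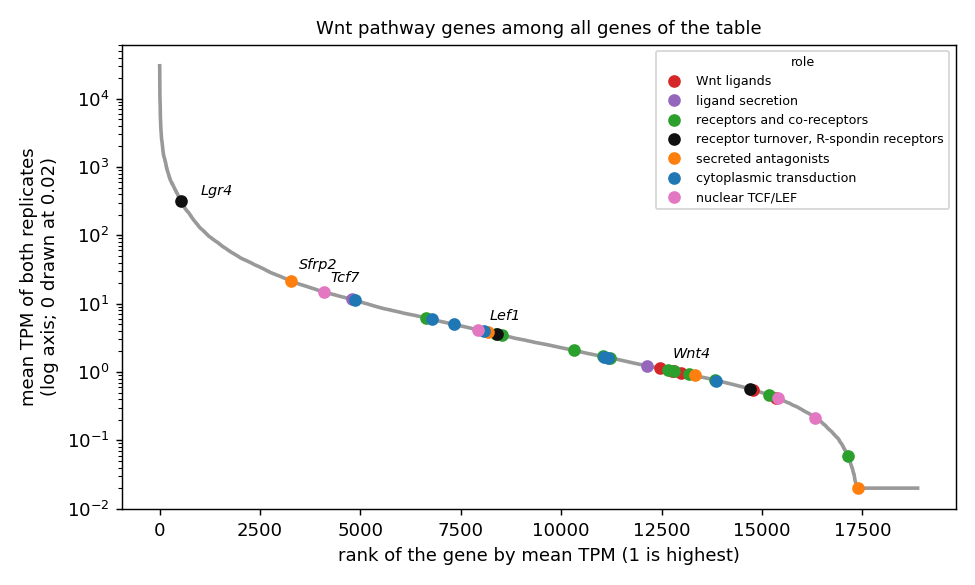
Mean TPM of 2 replicates (log axis) against rank among the 18877 genes of the table, with the Wnt pathway genes coloured by role and a mean of 0 drawn at 0.02. Lgr4, at rank 532, stands apart from the next of them, Sfrp2, at rank 3266.

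Lgr4 encodes a leucine-rich repeat receptor that binds R-spondins. The gene (ENSMUSG00000050199.13) lies on the plus strand at chr2:109917647-110014257 of GRCm38 (mm10), with 20 exon blocks in GENCODE M21. It stood at 379.9 TPM (95% interval 375 to 385, 21251 reads) in replicate 1 and 262 TPM (255 to 269.5, 5159 reads) in replicate 2, a mean of 321 ± 83.2 (SD, n = 2). None of the 100-base stretches of its annotated transcripts occurs in a transcript of another gene, and its exons overlap no other gene. Its paralog Lgr5, known as a stem cell marker of gut and skin, stood at 0.369 TPM (36 reads) and 0.758 TPM (26 reads). Lgr4 was thus 1029.7-fold above Lgr5 in replicate 1 (95% interval 744 to 1471) and 346-fold in replicate 2 (236 to 530.4). Znrf3, the ubiquitin ligase that removes Frizzled receptors and that R-spondins counteract through the Lgr receptors, was read at 4.53 TPM (340 reads) and 2.69 TPM (71 reads). The ratio of Lgr4 to Znrf3 was 83.8 (75.3 to 93.6) in replicate 1 and 97.5 (77.1 to 125) in replicate 2. All 3 genes of receptor turnover that had a row were thus ordered alike in both libraries. The R-spondins Rspo1 and Rspo3, ligands of Lgr4 named here after their values were seen, stood at 0.543 and 0.309 TPM (10 and 2 reads) and at 0.613 and 0.290 TPM (18 and 3 reads), so their levels rest on few reads.

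The proximal promoters of Lgr4 and of Sfrp2, the genes with the highest means, are printed because both hold the octamer ATTTGCAT, the sequence that POU-domain factors such as Oct4 bind. They come from RefSeq on GRCm38.p6, run on the plus strand from 250 bases before to 50 bases after the annotated start, and show the octamer in capitals. The Lgr4 window is chr2:109917397-109917696 and the Sfrp2 window chr3:83766071-83766370.
Lgr4: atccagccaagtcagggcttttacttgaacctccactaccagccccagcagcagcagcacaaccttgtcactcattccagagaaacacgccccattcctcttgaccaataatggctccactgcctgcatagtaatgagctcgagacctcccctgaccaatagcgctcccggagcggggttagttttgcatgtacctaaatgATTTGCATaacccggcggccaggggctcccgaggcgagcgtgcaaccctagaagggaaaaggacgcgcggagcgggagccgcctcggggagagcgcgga
Sfrp2: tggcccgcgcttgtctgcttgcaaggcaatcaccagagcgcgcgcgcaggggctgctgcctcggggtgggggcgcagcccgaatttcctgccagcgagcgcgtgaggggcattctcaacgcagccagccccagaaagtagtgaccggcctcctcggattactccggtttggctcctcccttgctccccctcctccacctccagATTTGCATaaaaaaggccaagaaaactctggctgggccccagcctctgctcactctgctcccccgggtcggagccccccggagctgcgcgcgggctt
The octamer starts 49 bases before the start of Lgr4 and 47 bases before that of Sfrp2, in the same orientation in both. Both strands were searched in the 24 of 38 Wnt pathway genes that had a promoter in the reference. Lgr4 and Sfrp2 were the 2 that held the octamer (8.33%), against 1.73% of the 10839 genes of the table with a promoter. Counted by promoter, since some genes have several, the octamer occurred in 2 of 31 (6.45%), against 1.74% of all 32851. The motif was chosen after these sequences were seen, so these 2 matches were set by the choice. The octamer shares of the Wnt pathway genes therefore cannot be read as an excess over other genes. A match is a description of letters, not of binding. Across the table the 188 genes with an octamer had a median of 1.70 on the log2(TPM + 1) scale, below the 2.13 of the 10651 genes without it. The core of the TCF/LEF site, CTTTGA or CTTTGT on either strand, occurred in 11 of the 31 promoters (35.5%), against 31.2% of all 32851. By gene, with any of its promoters, these were 11 of the 24 (45.8%), against 28.1% of the 10839, and neither Lgr4 nor Sfrp2 nor Axin2 was among the 11.

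The ligands, which act between cells, had the lowest median of the role groups, with 6 of 19 names in the table. The 6 with a row summed to 4.84 and 5.42 TPM in the libraries. The highest by mean was Wnt4, a ligand needed for ovary development, at 1.25 TPM (95% interval 0.931 to 1.65, 50 reads) and 0.998 TPM (0.546 to 1.68, 14 reads). Wnt3, Wnt7a, Wnt5a, Wnt5b and Wnt6 had means from 0.421 to 1.04 TPM. Of the 15 ratios between pairs of these ligands, the interval excluded 1 for 3 in replicate 1 and for 2 in replicate 2, so most of the order within the group was not resolved at this depth. Wnt4 was 2.04-fold above Wnt3 in replicate 1 (1.17 to 3.71), whereas in replicate 2 the ratio was 0.685 (0.306 to 1.52). Wnt3 and Wnt5a are named further because of their known roles around PGC formation and migration, after their values were seen. Wnt3 stood at 0.616 TPM (18 reads) and 1.46 TPM (15 reads), and the interval of the ratio of replicate 2 to replicate 1 was 1.11 to 4.98. Wnt5a stood at 0.955 TPM (71 reads) and 0.994 TPM (26 reads), nearly alike in the libraries. It shares 358 exonic bases with Gm2670 on the opposite strand, for which no level was listed.

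Porcn, the acyltransferase that attaches the lipid to Wnt proteins, was the fourth highest of the pathway genes and the only one of them on the X chromosome. It stood at 10.1 TPM (288 reads) and 13.0 TPM (130 reads). Wls, the carrier that takes lipid-bearing Wnts to the cell surface, stood at 1.75 TPM (146 reads) and 0.714 TPM (21 reads). Porcn was above Wls in both libraries, by 5.78-fold (4.72 to 7.10) in replicate 1 and 18.1-fold (11.4 to 30.3) in replicate 2.

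Among the receptors Fzd7 led. It stood at 6.36 TPM (5.63 to 7.16, 274 reads) and 6.07 TPM (4.89 to 7.45, 92 reads), and took 38.0% and 40.6% of the summed TPM of the 9 Frizzled genes. Fzd7 exceeded the next Frizzled, Fzd3, by 2.97-fold (2.49 to 3.53) in replicate 1 and 3.02-fold (2.23 to 4.10) in replicate 2. Fzd3, a Frizzled known for its part in axon guidance and planar polarity, stood at 2.14 TPM (261 reads) and 2.01 TPM (86 reads). Fzd9 stood at 1.84 and 1.57 TPM (40 and 12 reads) and Fzd5 at 1.93 and 1.30 TPM (127 and 30 reads). Fzd5 shares 1233 exonic bases with Gm38058 on the opposite strand, for which no level was listed. The ratios among Fzd3, Fzd5 and Fzd9 had intervals that held 1, except that Fzd3 was 1.55-fold above Fzd5 in replicate 2 (1.01 to 2.43). The highest of the receptors below 1 TPM in at least 1 library was Fzd1, at 0.777 and 1.35 TPM (31 and 19 reads). Fzd2, Fzd6, Fzd8, Fzd10 and Lrp5 had means from 0.0594 to 1.02 TPM.

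The co-receptors were uneven. Lrp6 stood at 3.49 TPM (453 reads) and 3.74 TPM (171 reads). Lrp5 stood at 0.119 TPM (11 reads) in replicate 1 and had no read in replicate 2, where 3 reads, the number that a count of 0 allows, would be 0.0921 TPM. Lrp6 was 29.3-fold above Lrp5 in replicate 1 (16.2 to 59.2). Ror2, the receptor tyrosine kinase that binds Wnt5a, stood at 3.37 TPM (136 reads) and 3.53 TPM (50 reads), and exceeded Wnt5a by 3.53-fold (2.63 to 4.78) and 3.55-fold (2.17 to 5.94). Fzd7, Lrp6 and Ror2 thus kept both their order and nearly their values between the libraries, and the ratio of Lrp6 to Ror2, at 1.03 (0.851 to 1.26) and 1.06 (0.770 to 1.48), held 1 in its interval both times.

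Of the secreted antagonists, Sfrp2, a soluble Frizzled-like protein that binds Wnts, was the highest. The gene (ENSMUSG00000027996.13) lies on the plus strand at chr3:83766321-83774316, with 5 exon blocks. It stood at 17.9 TPM (16.1 to 19.9, 367 reads) and 25.3 TPM (21.7 to 29.2, 182 reads), a mean of 21.6 ± 5.20 (SD, n = 2). Its exons overlap those of the antisense gene Gm26771 over 347 bases, and Gm26771 was listed at 32.7 and 40.9 TPM. Whether counting used strand is not stated, so reads of the overlap cannot be assigned to either gene. Sfrp1 stood at 4.88 TPM (203 reads) and 2.81 TPM (41 reads), below Sfrp2 by a factor of 3.67 (3.08 to 4.38) in replicate 1 and 9.01 (6.39 to 13.0) in replicate 2. Dkk1, which blocks the Lrp co-receptors, stood at 1.04 TPM (24 reads) and 0.739 TPM (6 reads). Dkk3 had no read, and 3 reads would be 0.0940 and 0.267 TPM there. The group thus held 2 well-read genes, both of the Sfrp family, with Dkk1 on few reads in replicate 2 and Dkk3 without a read.

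The cytoplasmic genes were read throughout, and in each pair of paralogs the same gene led in both libraries. Gsk3b, the kinase that phosphorylates beta-catenin for destruction, stood at 14.3 TPM (13.6 to 15.1, 1341 reads) and 8.0 TPM (7.06 to 9.03, 263 reads). Its paralog Gsk3a stood at 1.81 TPM (50 reads) and 1.44 TPM (14 reads), and Gsk3b exceeded it by 7.91-fold (5.97 to 10.7) and 5.54-fold (3.24 to 10.3). Gsk3a shares 820 exonic bases with a gene on the opposite strand, 9130221H12Rik, listed at 1.60 and 2.09 TPM. Apc, the scaffold of the destruction complex, stood at 5.46 and 6.36 TPM, from about 836 and 343 reads. The scaffold Axin1 stood at 3.33 TPM (121 reads) and 4.61 TPM (59 reads), and Axin2, a negative regulator that is itself a target of beta-catenin in many tissues, at 0.688 TPM (36 reads) and 0.815 TPM (15 reads). Axin1 was above Axin2 by 4.83-fold (3.31 to 7.22) and 5.66-fold (3.17 to 10.7). Dvl2, which relays the signal from Frizzled, stood at 4.36 TPM (261 reads) and 5.60 TPM (118 reads), and Dvl1 at 1.52 TPM (72 reads) and 1.86 TPM (31 reads). Dvl2 led Dvl1 by 2.88-fold (2.21 to 3.79) and 3.02-fold (2.02 to 4.64), but shares 1151 exonic bases with Acadvl on the opposite strand, listed at 3.80 and 5.68 TPM.

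Of the nuclear factors, Tcf7, which encodes TCF1, was the highest. It lies at chr11:52252371-52283014 and stood at 13.9 TPM (12.5 to 15.4, 347 reads) and 15.7 TPM (13.2 to 18.6, 138 reads), a mean of 14.8 ± 1.29 (SD, n = 2). Lef1 stood at 4.70 TPM (393 reads) and 3.64 TPM (107 reads), and Tcf7 exceeded it by 2.96-fold (2.55 to 3.42) and 4.32-fold (3.33 to 5.61). Lef1 shares 1208 exonic bases with Gm43352 on the opposite strand, for which no level was listed. Tcf7l1, which encodes TCF3, a repressor in pluripotent cells, stood at 0.375 TPM (14 reads) and 0.457 TPM (6 reads). Tcf7l2, which encodes TCF4, stood at 0.289 and 0.137 TPM, from about 24 and 4 reads. The order Tcf7, then Lef1, then the other two was the same in both libraries with intervals apart. The ratio of Tcf7l1 to Tcf7l2 was 1.30 (0.624 to 2.63) and 3.34 (0.795 to 16.2), so their order was not resolved. Tcf7 took 72.1% and 78.8% of the summed TPM of the TCF/LEF genes.

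Beta-catenin and the other genes of the pathway were read from 69 names in 5 lists, of which 50 had a row and 31 (62.0%) reached 1 TPM in both libraries, close to the 60.0% of all genes. Ctnnb1, which encodes beta-catenin and lies at chr9:120929216-120960507, stood at 199.6 TPM (9849 reads) and 186 TPM (3222 reads), a mean of 193 ± 9.85 (SD, n = 2). Lgr4 exceeded Ctnnb1 by 1.90-fold (1.86 to 1.95) in replicate 1 and 1.41-fold (1.35 to 1.48) in replicate 2. Ctnnb1 overlaps Ulk4 on the opposite strand over 759 exonic bases, and Ulk4 was listed at 100.2 and 94.5 TPM. Of beta-catenin with its kinases and ligases, 9 of 10 genes reached 1 TPM in both libraries, and the next highest was Csnk1a1, the casein kinase that primes beta-catenin, at 29.3 and 23.8 TPM. Of the nuclear cofactors 10 of 13 did, led by the Groucho-type corepressor Tle4 at 39.4 and 32.7 TPM and the corepressor Ctbp2 at 13.3 TPM in both. Of the planar polarity genes and alternative receptors 7 of 10 did, led by Prickle3 at 22.9 and 19.0 TPM and Ryk, a Wnt-binding receptor, at 15.8 and 13.9 TPM. Of the extracellular modulators 1 of 7 did, namely Tpbg at 6.29 and 1.48 TPM, and the next was Notum, which removes the lipid from Wnt proteins, at 1.0 and 0.870 TPM. Tpbg shares 898 exonic bases with 9330154J02Rik on the opposite strand. Among the 38 genes, 0 of 6 ligands and 2 of 4 antagonists, Sfrp2 and Sfrp1, had reached 1 TPM in both libraries. At 0.5 TPM in both it was 4 of 6 ligands and 3 of 4 antagonists, so those low counts depend on the threshold.

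**Figure D3:**
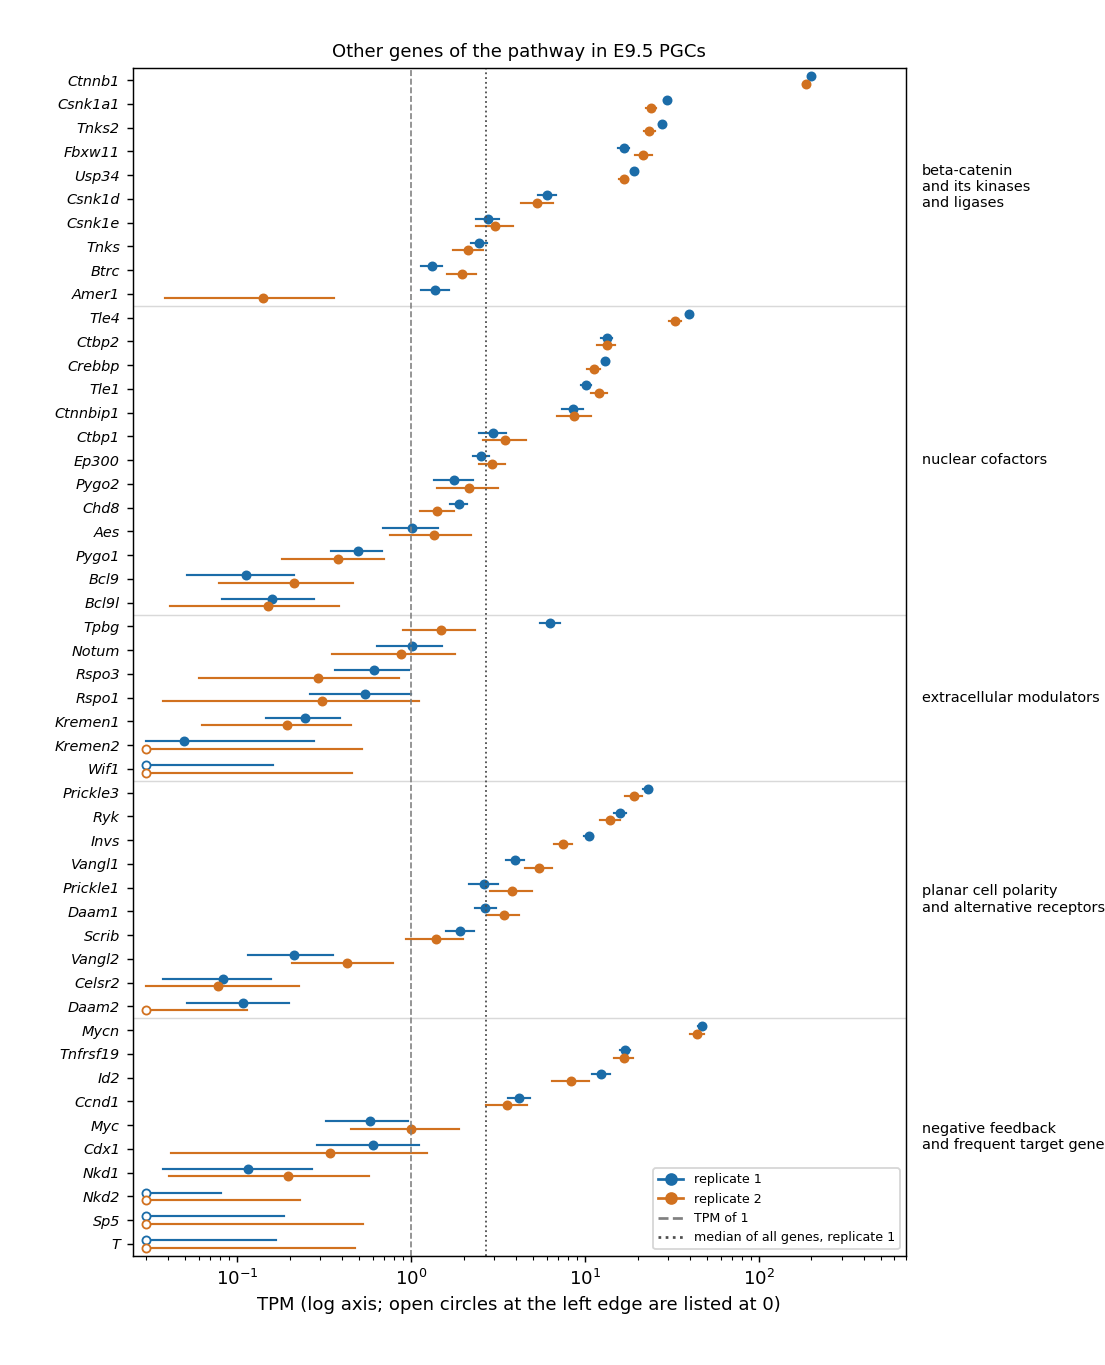
TPM (log axis) of 50 further genes of the pathway by list, with a point for each replicate and its exact 95% Poisson interval; the dashed line marks 1 TPM. Ctnnb1 is the highest, at 199.6 and 186 TPM, and 1 of 7 extracellular modulators reaches 1 TPM in both replicates.

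Genes that beta-catenin often induces, and that serve in other tissues as a readout of the pathway, were mixed. Of 10 such genes 4 (40%) reached 1 TPM in both libraries, against 60.0% of all genes. Mycn, a growth regulator, stood at 46.7 and 43.8 TPM. Tnfrsf19 stood at 17.0 and 16.7 TPM, Id2, an inhibitor of helix-loop-helix factors, at 12.4 and 8.34 TPM, and the cyclin Ccnd1 at 4.18 and 3.56 TPM. Ccnd1 shares 1100 exonic bases with LTO1 on the opposite strand. Mycn, Tnfrsf19, Id2 and Ccnd1 have many other known inputs besides beta-catenin, and its part in the level of any of the 10 genes was not tested. Nkd1, Cdx1 and Myc were read in both libraries, below 1 TPM in each. T (Brachyury), Sp5 and Nkd2, named after their values were seen, had no read in either library. For these genes 3 reads would be 0.136, 0.150 and 0.0654 TPM in replicate 1 and 0.388, 0.427 and 0.186 TPM in replicate 2.

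How far the libraries differed depends on the scale. On the log2(TPM + 1) scale 0 of 38 genes differed by over 2-fold, against 5.89% of all genes higher in replicate 1 and 4.31% higher in replicate 2. That scale damps differences between genes near or below 1 TPM, and with a pseudocount of 0.1 it was 5 genes (Fzd8, Fzd10, Lrp5, Wls and Wnt3), against 23.7% of all genes. Of the 36 genes with reads in both libraries, the 95% counting interval of the ratio of replicate 2 to replicate 1 excluded 1 in 14. Lgr4, Gsk3b, Sfrp1, Znrf3, Lef1, Wls and Fzd8 (19.4%) were higher in replicate 1. Sfrp2, Dvl2, Porcn, Apc, Wnt3, Fzd10 and Lgr5 (19.4%) were higher in replicate 2. Of the 15201 genes with 1 gene model and reads in both libraries, it was 22.9% and 16.8%. The shares of the Wnt pathway genes are near these. The ratio of replicate 2 to replicate 1 was 0.690 (0.669 to 0.712) for Lgr4 and 0.558 (0.487 to 0.637) for Gsk3b, the narrowest intervals among those higher in replicate 1. For Sfrp2 the ratio was 1.41 (1.17 to 1.69). The ratios furthest from 1 belonged to thinly read genes, 0.355 (0.175 to 0.684) for Fzd8 and 2.62 (1.09 to 6.24) for Fzd10. Of the markers of other cells, TPM intervals were apart, higher in replicate 1, for 1 of 4 of macrophages and 2 of 5 of endothelium. Emcn, of endothelium, stood at 2.12 and 0 TPM. The same held for 2 of 6 markers of red blood cells, 2 of 4 of gut endoderm and 1 of 4 of visceral endoderm. That last marker was Afp, at 0.843 and 0 TPM, and 2780 of all 18877 genes were apart in this direction. Towards replicate 2 intervals were apart for 1 marker each of mesenchyme, visceral endoderm and red blood cells, against 1856 of all genes. Emcn and Afp are named after their values were seen, and the part of such cells in these ratios was not tested. The difference in Lgr4 was beyond counting error, but with 2 libraries the spread between samples rests on this single pair of values.

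**Figure D4:**
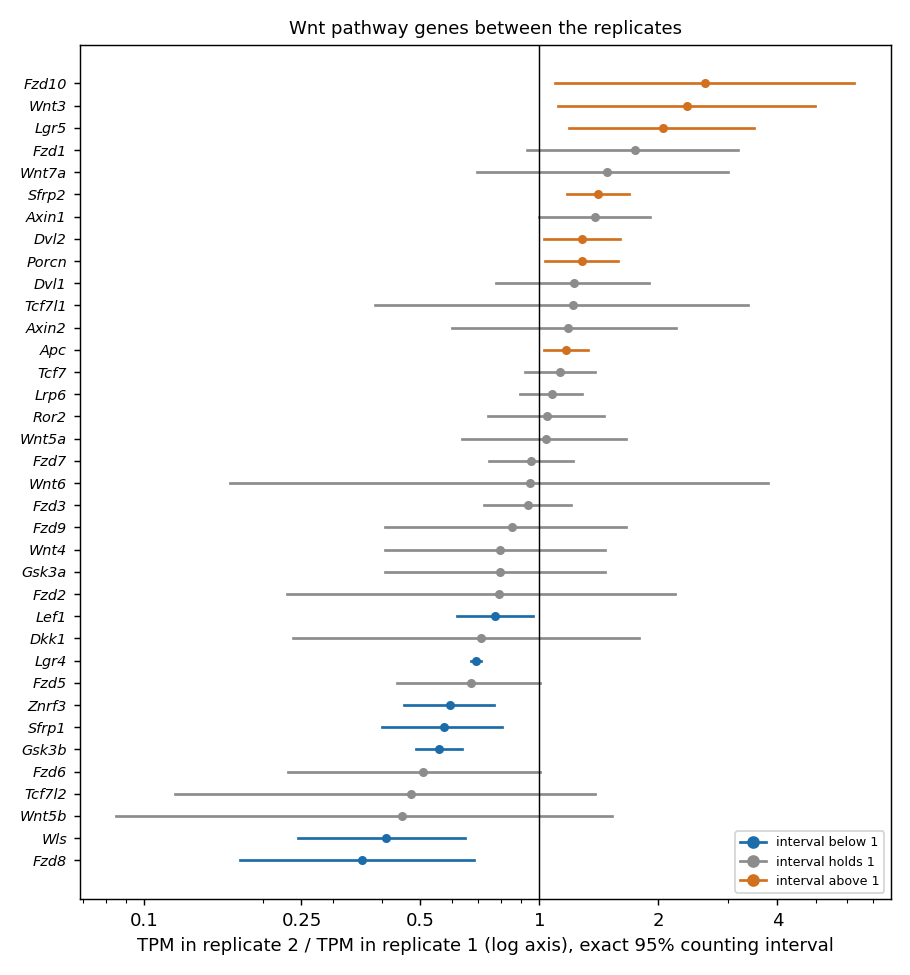
Ratio of TPM in replicate 2 to replicate 1 (log axis) for the 36 Wnt pathway genes with reads in both, with exact 95% counting intervals; the line marks a ratio of 1. Colours mark the 14 intervals that exclude 1. Lgr4, at 0.690, has the narrowest interval, and Fzd10, at 2.62, the highest ratio.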

How the data were processed

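RNA-seq of 2 E9.5 PGC samples was analysed, numbered by their titles. The authors aligned reads to mm10 with Hisat2, counted them per gene with featureCounts and deposited TPM values. The submitters' processing notes name Bowtie2, HISAT2, RSEM, DESeq2 and R 3.4.2 with no role. Annotation, strand and the handling of multi-mapped reads are not given in the sources used here. The methods name Smart-seq2 and the labels another library kit, so the chemistry is uncertain, and sorting is described both by flow cytometry and by magnetic beads.

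Multiplying each deposited TPM by the exonic length of its gene in GENCODE M21 (18748 symbols with 1 gene model) gave whole multiples of 1 read. Below 50 reads, 96.7% and 95.8% of values fell within 0.02 of a whole number. On simulated data from these 18748 genes 100% of low counts were recovered in each library. Apc, Fzd8 and Tcf7l2 gave no whole reads, so theirs are approximate. No molecular identifiers were used, so intervals and limits (3 reads for a count of 0) cover counting error only. The study calls the samples biological replicates, without stating how many animals each came from. A gene counted as detected at 1 TPM or more in both replicates, and medians used log2(TPM + 1). In 17 rows the symbol had been turned into a date, and none of them was used.

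Every gene of role groups of up to 8 names was given with its values. In larger groups these were the genes at 1 TPM or more in both replicates and the highest below it. Of the other lists the 2 highest and the detected target genes were given, and of marker lists the highest gene. The members and lists were chosen with earlier results of these data known. The alternatives were other thresholds and pseudocounts, a filter on low values, thinning replicate 1 to the depth of replicate 2, TPM rescaled without short genes, replicates scaled to the same median, and each replicate alone. Python 3.11.15, numpy 2.4.6, pandas 2.3.3, scipy 1.17.1 and matplotlib 3.10.9 were used. Promoters came from RefSeq on GRCm38.p6.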

Additional observations from a re-analysis of the deposited data

How the results depend on the processing

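Of 62 values recomputed for 12 main results, 41 stayed within the spread or within 1.5 times the count, 20 moved further and 1 changed sign. At 0.5 TPM in both replicates 29 of the 38 genes were detected (76.3%, against 68.7% of all genes), and at 5 TPM 7 (18.4%, against 35.5%). With at least 10 reads in both it was 30, for which the share of all genes was not computed. Of the other pathway genes 17 reached 5 TPM. Medians fell with a pseudocount of 0.1, to 0.69 for all 38 genes, 1.91 for secretion, 0.67 for receptors, 0.95 for antagonists, 2.01 for cytoplasmic genes, 0.56 for nuclear factors and -0.0175 for ligands, the value that changed sign because log2 of a sum below 1 is negative. The cytoplasmic genes then lay 2.02 above the ligands. At that pseudocount 5 genes, and not 0, differed by over 2-fold between replicates. Kept to genes with a mean of at least 1 TPM, medians rose to 2.03 for the pathway, 1.54 for receptors, 3.36 for antagonists, 5.24 for receptor turnover and 3.17 for nuclear factors, since the low genes were left out. Rescaling TPM without genes under 200 exonic bases, which shifted the median of all genes by 0.16, gave 1.47 for the pathway, 2.54 for secretion and 1.56 for nuclear factors.

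In replicate 1 alone 24 of the 38 genes were detected, against 12887 of all 18877. In replicate 2 alone it was 23, against 12616. With 1 replicate at a time the cytoplasmic genes lay 1.27 to 1.49 above the ligands. No paired analysis was possible because the series holds only 1 group. Depth limited replicate 2 most: 18 of the 38 genes had under 20 reads there, against 8 in replicate 1. Of 117 values recomputed for 39 single genes, 15 moved by more than the spread between replicates.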
